A study of Rattus norvegicus with 20 samples.

Results

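Transcripts of the neurotrophins Bdnf and Ntf3 and of the receptors Ntrk2, Ntrk3, Ngfr and Sort1 were examined in the nucleus accumbens, the part of the ventral striatum where reward and motivation signals converge. These 6 genes were taken by their symbols from the 17296 rows of the deposited count table, over all 20 libraries. The rats were male Sprague-Dawley (WT) animals from Envigo, aged 7 to 9 weeks and housed 2 to a cage, and all of them self-administered cocaine. The drinking solution defined 4 groups. The 5 control rats (H2O) had water, and 4 rats (Abx) had antibiotics to deplete their gut bacteria. Another 6 rats (SCFA) had short-chain fatty acids, which gut bacteria make from fibre, and 5 rats (Abx_SCFA) had both. No group without cocaine was analysed here, and the sources used here give neither the agents nor the doses in the drinking solutions. The labels do not say which rats shared a cage, so p-values measure the spread between these animals as if each were separate.

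Neurotrophins are secreted growth factors that keep neurons alive and adjust their synapses. Brain-derived neurotrophic factor (Bdnf) signals mainly through the receptor tyrosine kinase TrkB (Ntrk2) and neurotrophin-3 (Ntf3) mainly through TrkC (Ntrk3), while p75 (Ngfr) binds all neurotrophins and, together with sortilin (Sort1), their uncleaved precursors. Striatal neurons make little Bdnf mRNA themselves, and most BDNF protein of the striatum is carried there in the axons of cortical neurons. Bdnf has long been studied in the accumbens for its part in cocaine seeking.

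Rat Bdnf lies on chromosome 3 (116619633 to 116670212 in the RefSeq annotation of GRCr8) and has 11 RefSeq transcripts there, which start at several alternative first exons. The count table gives 1 row per symbol, so these starts cannot be separated. RefSeq promoter windows of 300 bases, from 250 before to 50 after a start, were found for 6 Bdnf starts, 3 Ntf3 starts and 1 Sort1 start, and for none of Ntrk2, Ntrk3 and Ngfr. The part upstream of the start is printed for the Bdnf window that holds TCACGTCA, a cAMP-response-element-like motif known from the calcium-responsive Bdnf promoter. It is shown because Bdnf is the member whose level varied most and is a textbook activity-regulated gene. The stretch is chr3:116637608-116637857 on the plus strand of GRCr8, with the motif in capitals.
Bdnf upstream: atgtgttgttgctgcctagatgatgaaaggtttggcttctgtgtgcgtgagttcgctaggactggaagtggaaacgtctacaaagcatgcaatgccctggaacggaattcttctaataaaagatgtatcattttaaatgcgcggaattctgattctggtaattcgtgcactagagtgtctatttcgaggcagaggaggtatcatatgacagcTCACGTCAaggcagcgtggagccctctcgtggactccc

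The motif begins 38 bases before the start site. Searched on both strands as TCACGTCA or TGACGTGA, it was present in 1 of 6 Bdnf windows and in 134 of 33469 rat windows of the same length, or 0.4%. The full palindrome TGACGTCA was in 0 of 6 Bdnf windows and in 1.83% of all windows. The shorter core TGACG, present in 21.2% of all windows, occurred in 1 Bdnf window, where it overlaps the printed motif. Of the E-boxes searched, CATATG, held by 4.11% of all windows, lies in the same stretch, 49 bases before the start. CACGTG was found in 1 Bdnf window against 6.42% of all windows, and CAGCTG in 2 overlapping Bdnf windows against 15.1%. These are matches of letters and no measure of factor binding.

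Library totals ran from 17525358 to 25731636 counts. All 6 genes passed the filter on low counts that left 12846 genes for testing. Levels are given as CPM (counts scaled to a common library size) on TMM-scaled library sizes, and a count of 0 in a library allows up to 3 counts, or 0.115 to 0.171 CPM. Differences were tested with the quasi-likelihood test of edgeR, fitted over all genes, with Benjamini-Hochberg adjustment over all of them. A gene was called at an adjusted p below 0.05. In each of the 6 contrasts edgeR called 0 genes (0%), so that 0 of the 6 members were called. DESeq2 called between 0 and 10 genes and limma-voom 0, and neither called a member. The rat numbers of H2O and Abx begin with 2 or 3, and those of SCFA and Abx_SCFA with 4. In Abx_SCFA vs Abx, and when SCFA or Abx_SCFA is set against H2O, the number series cannot be told apart from the fatty acids. The interaction sets antibiotics within numbers that begin with 4 against antibiotics within those that begin with 2 or 3. There, too, series and fatty acids cannot be told apart. The 3 comparisons with H2O share their control libraries.

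Bdnf was the member that varied most between libraries. In H2O replicates 1 to 5 it stood at 0.105, 0.906, 0.1102, 0.361 and 6.05 CPM, which are 2, 18, 2, 8 and 128 counts. In Abx replicates 1 to 4 it stood at 25.3, 1.28, 4.56 and 8.60 CPM. In SCFA it ran from 1.29 CPM in replicate 1 over a median of 8.42 to 41.1 CPM in replicate 5. The first 4 H2O libraries lay below all 15 libraries of the treated groups, whereas the fifth H2O library was 6.68 times the next highest and was exceeded by only 7 of those 15. In Abx_SCFA replicates 1 to 5 Bdnf stood at 3.80, 6.77, 5.11, 11.5 and 5.39 CPM, with the smallest SD of log2 CPM of the 4 groups, 0.59 against 1.76 to 2.05. The ranges overlapped in all 5 comparisons between groups. Over the 20 libraries the SD of log2 CPM was 2.17, rank 5 of 12846 tested genes from the highest, against a median of 0.167 over all genes.

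Mean Bdnf was 1.51 ± 2.56 CPM in H2O (SD, n = 5), 9.93 ± 10.7 in Abx (SD, n = 4), 14.6 ± 15.9 in SCFA (SD, n = 6) and 6.52 ± 2.98 in Abx_SCFA (SD, n = 5). On the log2 scale the order was SCFA, Abx_SCFA, Abx and H2O, and the first 3 lay within 1 SD of their neighbours. The fitted log2 fold change was 2.70 ± 1.07 (SE) in Abx vs H2O, with a 95% interval from 0.44 to 4.95 and an adjusted p of 0.563 by edgeR. In SCFA vs H2O it was 3.24 ± 1.02, with an interval from 1.09 to 5.40 and an adjusted p of 0.247. In Abx_SCFA vs H2O it was 2.07 ± 1.05, with an adjusted p of 0.815. None of these differences passed the threshold.

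Adding short-chain fatty acids to antibiotics was not followed by a detectable difference in Bdnf. Abx_SCFA vs Abx gave -0.63 ± 0.96 with an interval from -2.64 to 1.39. Adding antibiotics to short-chain fatty acids, a comparison within the series that begins with 4, gave -1.17 ± 0.88 with an interval from -3.03 to 0.69. Both intervals include 0, so they hold lower as well as higher Bdnf in Abx_SCFA, several-fold lower at their lower bounds. The interaction, the effect of antibiotics on top of fatty acids less their effect on top of water, was -3.87 ± 1.39 for Bdnf, with an adjusted p of 0.622 by edgeR. Within the number series, means of log2 CPM were compared, which is another measure than the fitted values. Among rats with numbers that begin with 2, mean Bdnf was 3.73 higher in 2 Abx than in 2 H2O libraries. Among those that begin with 3 it was 2.94 higher in 2 Abx than in 3 H2O libraries. Over all Abx and H2O libraries this difference was 3.24.

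**Figure D1:**
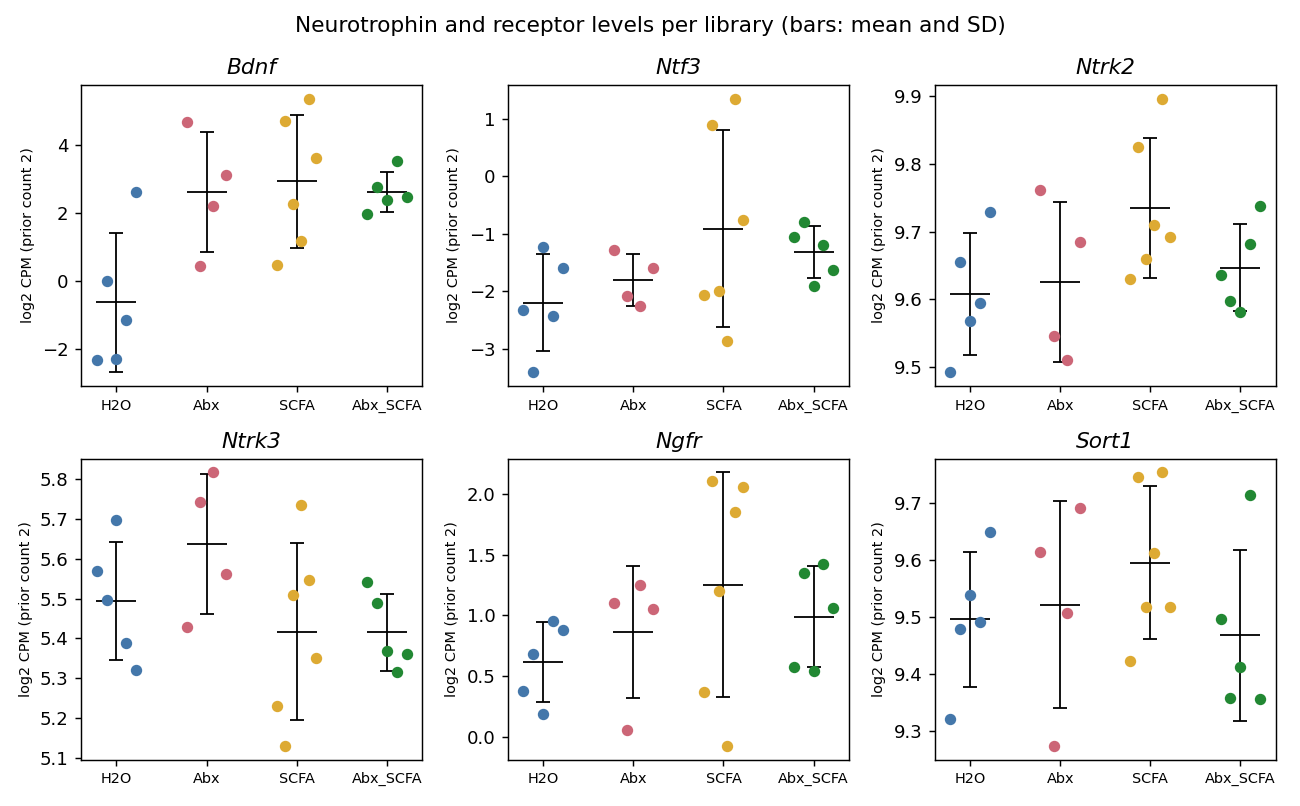
Each panel shows the log2 CPM (prior count 2) of a member in each library of the 4 groups as points, with the mean and SD as bars. Bdnf spans the widest range, with 4 of 5 H2O libraries below all treated libraries, while Ntrk2 and Sort1 stay within a narrow band.

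Single libraries moved the Bdnf estimates. Without H2O replicate 5, the log2 fold change was 4.73 in Abx vs H2O, 5.26 in SCFA vs H2O (adjusted p = 0.0593) and 4.09 in Abx_SCFA vs H2O. Without Abx replicate 1, the highest of that group, Abx vs H2O gave 1.66 and Abx_SCFA vs Abx turned from -0.63 to 0.42. Without SCFA replicates 2 and 5, SCFA vs H2O gave 1.70 ± 0.999 (adjusted p = 0.864) and Abx_SCFA vs SCFA turned to 0.38 ± 0.91. The interaction of Bdnf moved to -5.90 when H2O replicate 5 was left out. It was -2.83 when Abx replicate 1 was left out, and -2.33 when both SCFA replicates 2 and 5 were. The difference from H2O kept its sign in each of these fits, and no fit called it.

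**Figure D2:**
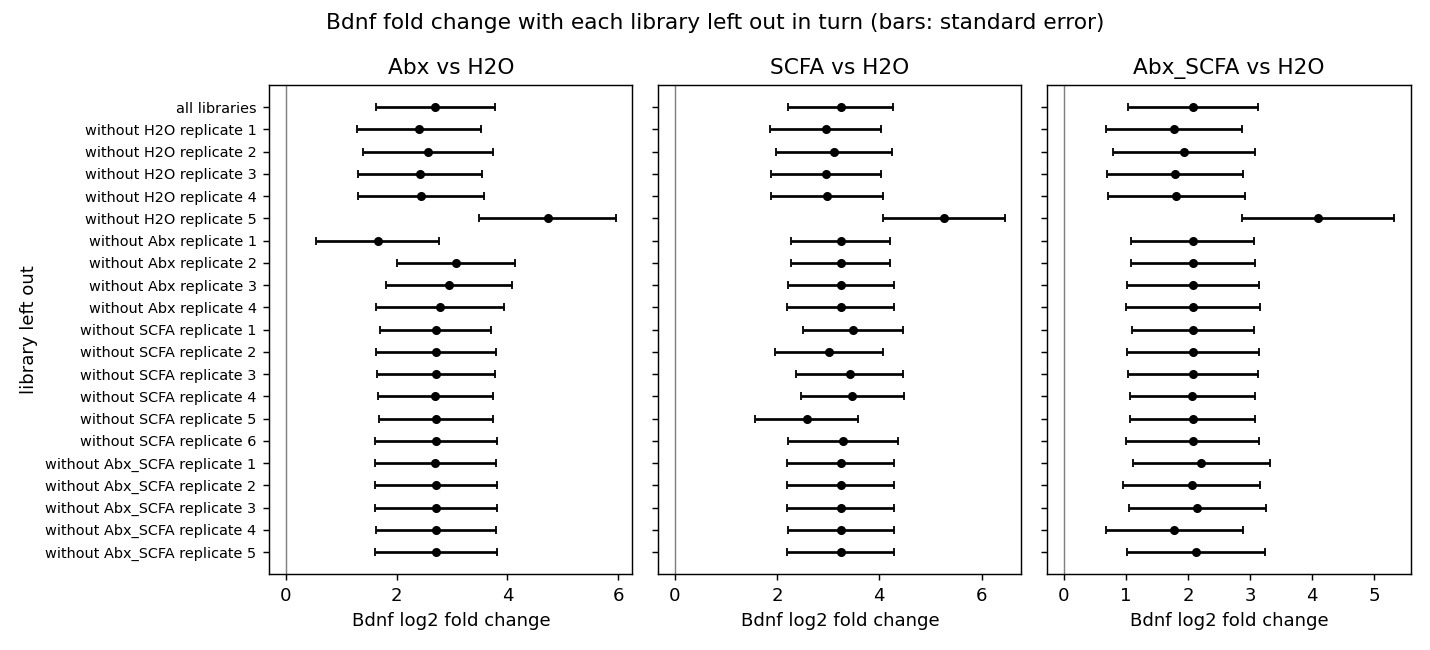
The fitted log2 fold change of Bdnf (x axis) is shown with its SE for the 3 comparisons with H2O when each library named on the y axis is left out. Leaving out H2O replicate 5 gives the highest value in each panel, 5.26 in SCFA vs H2O.

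Ntf3, the ligand of TrkC, was near the limit of detection. It gave 2, 0, 6, 2 and 5 counts in H2O replicates 1 to 5, and 8, 3, 2 and 6 counts in Abx replicates 1 to 4. In SCFA the counts ran from 1 to 62, and in Abx_SCFA they were 8, 9, 4, 7 and 6. Only SCFA replicate 2, with 34 counts or 1.75 CPM, and SCFA replicate 5, with 62 counts or 2.45 CPM, reached 10 counts. The median in SCFA was 0.326 CPM, close to the 0.342 CPM median of Abx_SCFA, and all groups overlapped. Of the 20 libraries, 8 had at most the 3 counts that a count of 0 allows, and outside SCFA none had more than 9.

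Mean Ntf3 was 0.152 ± 0.131 CPM in H2O (SD, n = 5), 0.202 ± 0.0924 in Abx (SD, n = 4), 0.840 ± 1.01 in SCFA (SD, n = 6) and 0.321 ± 0.123 in Abx_SCFA (SD, n = 5). SCFA vs H2O gave a log2 fold change of 2.47 ± 0.82, with an interval from 0.75 to 4.18 and an adjusted p of 0.248 by edgeR. Ntf3 passed the filter on low counts narrowly: without SCFA replicate 2, 5 or 6, or without Abx_SCFA replicate 2, it no longer passed and has no fitted value. Abx vs H2O gave 0.47 ± 1.05, Abx_SCFA vs H2O 1.04 ± 0.95 and Abx_SCFA vs SCFA -1.43 ± 0.72. The lowest adjusted p of these was 0.734.

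Ntrk2 encodes TrkB, the main receptor of BDNF, which occurs as a full-length kinase and as truncated forms that astrocytes also make. Counts per symbol merge these forms. Ntrk2 stood at 720, 806, 759, 773 and 849 CPM in H2O and at 868, 747, 729 and 823 CPM in Abx. In SCFA it ran from 793 over a median of 832 to 953 CPM, and in Abx_SCFA it was 795, 775, 766, 822 and 853 CPM. The highest library was 1.32 times the lowest, and the groups overlapped. Only SCFA replicates 2 and 5, at 906 and 953 CPM, exceeded every library of the other groups.

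The largest fitted log2 difference of Ntrk2 from H2O was 0.13 ± 0.063 in SCFA, with an interval from -0.0028 to 0.26 and an adjusted p of 0.372 by edgeR. It was 0.066 ± 0.062 without SCFA replicates 2 and 5. In Abx vs H2O it was 0.019 ± 0.069 and in Abx_SCFA vs H2O 0.037 ± 0.065. In Abx_SCFA vs SCFA it was -0.091 ± 0.063. The bounds of these 4 intervals lay between -0.22 and 0.26 on the log2 scale for the summed TrkB transcripts. In the RefSeq annotation Ntrk2 overlaps 7 long non-coding RNA genes and Ntrk3 overlaps 1, and without a stated strand setting their reads cannot be told apart.

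Ntrk3 encodes TrkC, the receptor of neurotrophin-3. It stood at 47.4, 45.0, 51.8, 41.8 and 39.9 CPM in H2O and at 43.0, 53.4, 56.2 and 47.2 CPM in Abx. In SCFA it ran from 34.9 over a median of 43.1 to 53.1 CPM, and in Abx_SCFA it was 46.5, 44.8, 41.2, 39.7 and 41.0 CPM. Abx held the highest library and SCFA the lowest, and all groups overlapped. Unlike Bdnf, Ntrk3 had its lowest value in SCFA replicate 2. Abx_SCFA vs Abx gave a log2 fold change of -0.23 ± 0.11, with an interval from -0.45 to -0.0017 and an adjusted p of 0.999 by edgeR. Abx vs H2O gave 0.14 ± 0.11, SCFA vs H2O -0.067 ± 0.098 and Abx_SCFA vs H2O -0.082 ± 0.10.

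Ngfr encodes the p75 receptor, which is low in most adult striatal neurons and high in basal forebrain cholinergic neurons. In H2O it stood at 1.20, 1.51, 1.05, 1.85 and 1.75 CPM and in Abx at 2.05, 0.946, 2.28 and 1.98 CPM. In SCFA it ran from 0.854 CPM in replicate 4 over a median of 2.86 to 4.22 CPM in replicate 2, and in Abx_SCFA it was 1.40, 2.45, 1.36, 2.59 and 1.99 CPM. SCFA replicates 2, 5 and 6 at 4.22, 3.52 and 4.07 CPM lay above all other libraries, but SCFA also held the lowest. These values come from 19 to 89 counts a library, so counting error is part of their spread.

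Mean Ngfr was 1.47 ± 0.344 CPM in H2O (SD, n = 5), 1.81 ± 0.593 in Abx (SD, n = 4), 2.68 ± 1.47 in SCFA (SD, n = 6) and 1.96 ± 0.574 in Abx_SCFA (SD, n = 5). In SCFA vs H2O the log2 fold change was 0.85 ± 0.36, with an interval from 0.10 to 1.60 and an adjusted p of 0.299 by edgeR. It was 0.48 ± 0.37 without SCFA replicates 2 and 5 (adjusted p = 0.869). Abx vs H2O gave 0.29 ± 0.40 and Abx_SCFA vs H2O 0.40 ± 0.38, neither past the threshold.

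Sort1 encodes sortilin, which sorts neurotrophin precursors into the secretory pathway and is the p75 partner for pro-neurotrophins. It stood at 639, 714, 744, 720 and 803 CPM in H2O and at 783, 619, 728 and 827 CPM in Abx. In SCFA it ran from 686 over a median of 758 to 864 CPM, and in Abx_SCFA it was 723, 656, 681, 841 and 655 CPM. The highest library was 1.40 times the lowest, and the groups overlapped throughout. The log2 fold change from H2O was 0.030 ± 0.095 in Abx, 0.10 ± 0.086 in SCFA and -0.025 ± 0.090 in Abx_SCFA. The lowest adjusted p of these by edgeR was 0.651.

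**Figure D3:**
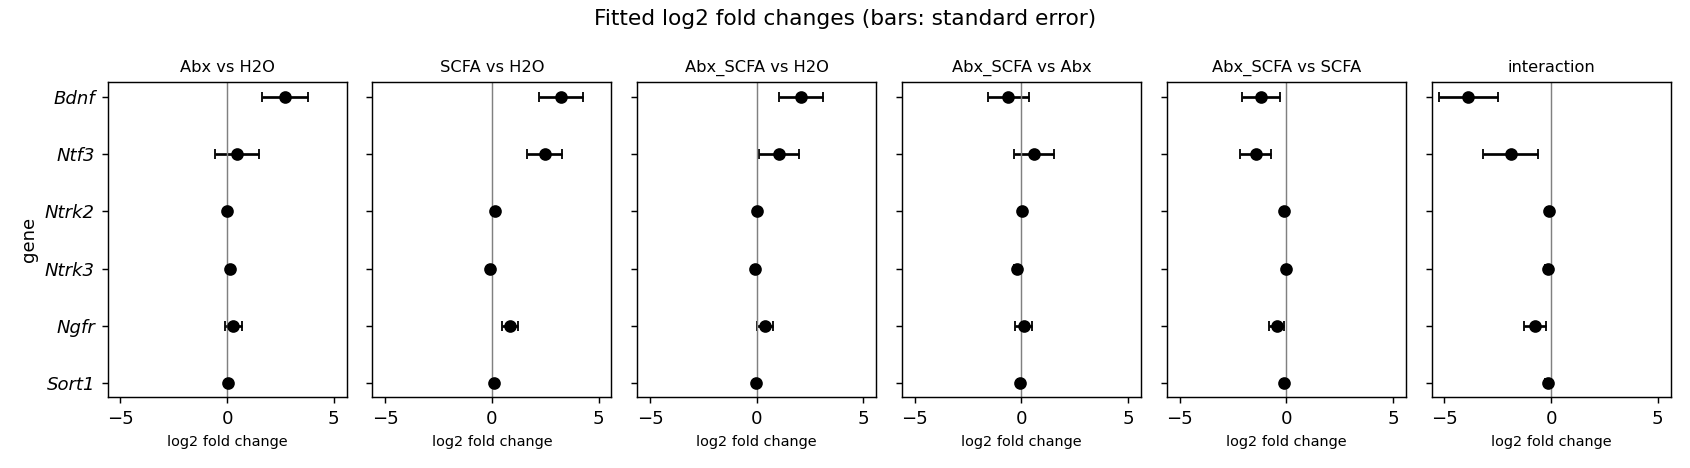
Fitted log2 fold changes (x axis) with their SE are shown for the 6 members (y axis) in each of the 6 contrasts. Bdnf and Ntf3 have the widest error bars, and Ntrk2, Ntrk3 and Sort1 lie close to 0.

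Members other than Ntf3 were also counted at an unadjusted p below 0.05, beside the share of all tested genes at that level. Ntf3 was left out of the count because it passed the filter mainly through the SCFA libraries where it is high. In SCFA vs H2O 2 of 5 members, Bdnf and Ngfr, were at that level, both higher in SCFA, against 13.8% of all genes. By DESeq2 3 of 5, Bdnf, Ntrk2 and Ngfr, were, and by limma-voom 1 of 5, Bdnf, was. Without SCFA replicates 2 and 5, or with a cortical marker score as a covariate, 0 of 5 were. For these alternative fits the share of all genes at that level is not given here. In Abx vs H2O 1 of 5, Bdnf, was, against 8.79%, and in Abx_SCFA vs H2O 0 of 5 were, against 5.56%. In Abx_SCFA vs Abx 1 of 5, Ntrk3, was, against 3.19%, and in Abx_SCFA vs SCFA 0 of 5 were, against 6.78%. In the interaction 1 of 5, Bdnf, was, against 7.85%. The groups of a comparison overlapped for all 6 members in all 5 comparisons, while over all genes the groups did not overlap for 2.46% in Abx vs H2O, 0.537% in SCFA vs H2O, 1.42% in Abx_SCFA vs H2O, 1.2% in Abx_SCFA vs Abx and 0.56% in Abx_SCFA vs SCFA.

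Ntf3 was left out here for the same reason. Over the other 5 members the median log2 fold change from H2O was 0.14 in Abx, 0.13 in SCFA and 0.037 in Abx_SCFA. With Ntf3 it was 0.22, 0.49 and 0.22, and over all genes -0.0083, -0.0030 and -0.0071. All 6 members had negative values in Abx_SCFA vs SCFA. The median there was -0.13 without Ntf3 and -0.29 with it, against -0.012 over all genes. SCFA replicate 5 was the highest of the 20 libraries for 4 members, Bdnf, Ntf3, Ntrk2 and Sort1, and SCFA replicate 2 for Ngfr.

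The Bdnf levels were set beside markers of the cell types that a dissection could hold. Slc17a7, the vesicular glutamate transporter of cortical excitatory neurons, ran from 3.09 to 32.8 CPM in the first 4 H2O libraries and was 252 CPM in the fifth. Its lowest value in a treated library was 43.7 CPM, and its highest, 1059 CPM, was in SCFA replicate 5. The same 4 H2O libraries were thus below all 15 treated libraries in Slc17a7 and in Bdnf. The summed level of the 11 of 13 listed cortical markers in the table was 457 to 1000 CPM in H2O, 616 to 1613 in Abx, 582 to 2686 in SCFA and 689 to 1341 in Abx_SCFA, and none was at 0 in all libraries. In the first 4 H2O libraries most of that sum came from listed genes other than Slc17a7, so it is no measure of cortical RNA alone. Of these 11 markers, 11 had positive fold changes in each comparison with H2O. The smallest log2 values were 0.22 in Abx, 0.35 in SCFA and 0.044 in Abx_SCFA, against medians of 1.82, 2.61 and 1.49.

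Bdnf followed the mean log2 CPM of these cortical markers over the 20 libraries with Pearson's r = 0.989 and Spearman's rho = 0.986. A permutation test gave an adjusted p of 3.5e-05 for each over 7 relations, from the smallest p that 100000 permutations can give. Of all marker lists, this one had the largest r with Bdnf. The test was added after the data were seen, and its adjustment leaves out the other lists. The 7 relations include Bdnf with Slc17a7, which is also part of the score. This p thus belongs to a relation picked from the same data, and no conclusion is drawn from it. With group means subtracted r was 0.98, without H2O replicates 3 and 1, the libraries farthest from the median, it was 0.98, and within rat numbers that begin with 2 or 3 (n = 9) and with 4 (n = 11) it was 0.99 and 0.98. With that marker score as a covariate the fitted Bdnf difference was 0.38 ± 0.29 in Abx vs H2O, 0.055 ± 0.27 in SCFA vs H2O and 0.38 ± 0.27 in Abx_SCFA vs H2O, and the interaction was -0.055 ± 0.35. A score that follows Bdnf this closely takes up most of any Bdnf difference, whatever its cause, so that fit cannot decide between causes. Whether the groups' Bdnf levels differ through the amount of cortical RNA in the samples was not tested. In bulk tissue, a different number of cells of a type and a different amount of RNA per cell cannot be told apart.

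**Figure D4:**
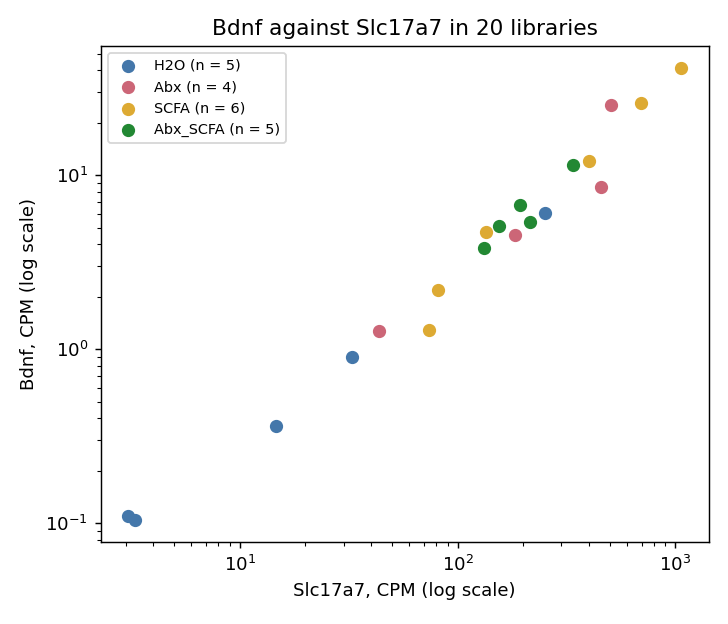
Bdnf (y axis) is plotted against Slc17a7 (x axis), both in CPM on log scales, for the 20 libraries coloured by group. The points rise together, from H2O replicates 1 and 3 at the lower left to SCFA replicate 5 at 1059 and 41.1 CPM.

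As a ratio that cancels the library size, Bdnf gave 17.5 counts per 1000 Slc17a7 counts in SCFA replicate 1 and 49.9 in Abx replicate 1, a 2.86-fold range. This ratio was chosen after the data were seen, and in H2O replicates 1 and 3 it rests on 2 Bdnf counts each, under the floor of 3, and in replicate 4 on 8. Its mean was 28.8 ± 4.95 in H2O (SD, n = 5), 30.7 ± 13.5 in Abx (SD, n = 4), 30.9 ± 8.02 in SCFA (SD, n = 6) and 31.1 ± 4.16 in Abx_SCFA (SD, n = 5). The log2 ratio differed from H2O by 0.016 in Abx, 0.074 in SCFA and 0.12 in Abx_SCFA. Exact two-sided permutation tests gave p = 0.968, 0.762 and 0.397, and 0.968 for all after adjustment over 5 comparisons. The ratio of Bdnf to Slc17a7 was not shown to differ. Slc17a7 is among the genes most like Bdnf over these libraries (r = 0.98), so a similar ratio in all groups was likely from the start. With few rats and low Bdnf counts in H2O, these tests cannot decide whether the ratio is the same. H2O replicate 5, which stands apart in Bdnf, had 24.0 per 1000.

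The other members followed the cortical marker score less closely. The permutation tests of these correlations, that of Bdnf included, were added after the data were seen. Their adjustment covers none of the other marker lists, so no conclusion is drawn from these p-values. Pearson's r was 0.661 for Ntf3, 0.768 for Ntrk2, 0.751 for Ngfr, 0.589 for Sort1 and -0.361 for Ntrk3. Spearman's rho was 0.704, 0.776, 0.808, 0.615 and -0.411 in the same order. For Ntrk2, Ngfr, Sort1 and Ntrk3 the adjusted permutation p was 0.000233, 0.000262, 0.00729 and 0.118 for r. For rho it was 0.000122, 0.000122, 0.00562 and 0.0731. No p is given for Ntf3, which passed the filter mainly through the SCFA libraries where it is high. SCFA replicates 2 and 5, the only ones where it reached 10 counts, had the highest marker scores, 5.43 and 6.28. Within rat numbers that begin with 2 or 3, r for Ntf3 was 0.31 (n = 9), against 0.89 within those that begin with 4 (n = 11). In the first of these Ntf3 had at most 8 counts a library, too few to show or exclude a relation, and the difference was not tested. For Ntrk2 the values were 0.68 and 0.81, for Ngfr 0.71 and 0.86 and for Sort1 0.62 and 0.65. Without H2O replicates 3 and 1, r was 0.84 for Ntf3, 0.72 for Ntrk2, 0.73 for Ngfr, 0.64 for Sort1 and -0.23 for Ntrk3. With the marker score as a covariate, the sign of the difference from H2O turned for Ntf3, Ntrk2 and Ngfr in all 3 comparisons.

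Ntf3 also ran against markers of medium spiny neurons, the principal cell type here (r = -0.85, rho = -0.60 over 20 libraries), and of cholinergic interneurons (r = -0.83, rho = -0.74). This was not particular to Ntf3. With the same 2 lists r was -0.75 and -0.76 for Ntrk2, -0.60 and -0.71 for Ngfr and -0.52 and -0.64 for Sort1. For Ntrk3 r was 0.42 and 0.48. Summed over 13 medium spiny markers, the lowest library, at 4247 CPM, was in SCFA, where the 6 libraries reached 9269 CPM, against 7294 to 9932 in H2O. Drd1, the D1 dopamine receptor, was lowest at 171 CPM in SCFA replicate 5, and Chat, the acetylcholine-synthesising enzyme, at 5.87 CPM in SCFA replicate 2. These are the 2 libraries in which Ntf3 exceeded 10 counts. Gfap and Mbp, markers of astrocytes and oligodendrocytes, ran over 362 to 860 and 2877 to 11369 CPM. In Abx vs H2O all 12 oligodendrocyte markers had negative log2 fold changes (median -0.67, 0 called by edgeR). Of them 11 were at an unadjusted p below 0.05 by edgeR, against 8.79% of all genes. In SCFA vs H2O all 13 medium spiny markers were negative (median -0.36, 0 called), with 4 at that level against 13.8% of all genes. Genes of a list can rise and fall together, so these counts are not independent. Across astrocyte, oligodendrocyte, oligodendrocyte precursor, microglial, vascular, meningeal and choroid or ependymal lists, the values of r for Bdnf lay between -0.44 and 0.23, and for the septal or pallidal and other interneuron lists at 0.65 and 0.49. For medium spiny and cholinergic markers r with Bdnf was -0.55 and -0.68. Their part in the results was not tested.

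**Figure D5:**
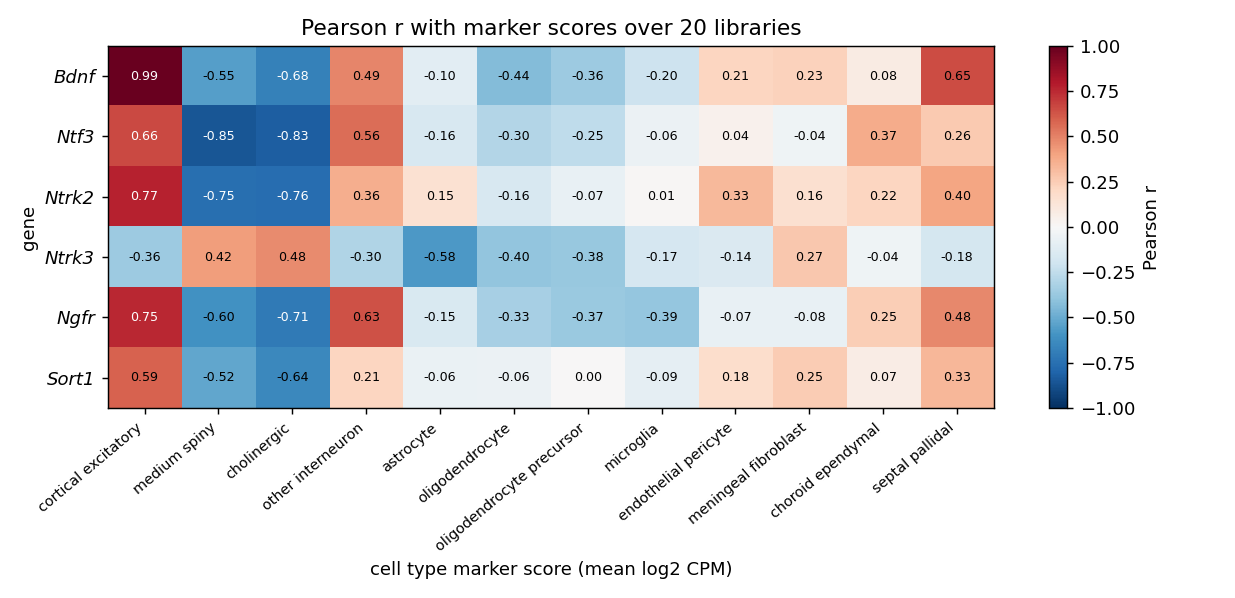
Colours give Pearson's r over 20 libraries between the log2 CPM of each member (rows) and the mean log2 CPM of each marker list (columns). The largest value is that of Bdnf with cortical excitatory markers, 0.99.

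The genes whose pattern over the 20 libraries was most like Bdnf, among 11683 others, were Cck (r = 0.99), Neurod6 (0.98), Slc17a7 (0.98), Rtn4rl2 (0.98) and Neurod2 (0.97). For Bdnf 80 genes exceeded an r of 0.9, for Ntrk2 3 genes and for the other members none. Most like Ntrk2 were Mfap3l (0.92), Anxa4 (0.91) and Chrdl1 (0.91). Ntf3 was nearest to Cntnap4 (0.89), Mpdz (0.89) and Drc1 (0.88). Among the genes nearest to Ntrk3 were Hdlbp (0.85) and Mtmr12 (0.85). Ngfr was nearest to Hes1 (0.87), Fam220a (0.86) and Tmem65 (0.86), and Sort1 to Cadm2 (0.87), Lpgat1 (0.86) and Sema7a (0.84). These libraries share tissue and depth, and only the highest correlations among all genes compared are given, so the values are descriptive.

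Ntf4, neurotrophin-4, another ligand of TrkB that the selection did not include, gave 1 to 18 counts a library and was not called in any contrast.

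The wider pathway was read from 5 lists, without the members themselves, and 0 of their genes were called in any contrast. Of 29 activity-regulated genes tested, such as immediate early genes and neuropeptides that follow neuronal activity or BDNF, 28 had positive values in Abx vs H2O, with a median log2 fold change of 0.30. In SCFA vs H2O 23 of 29 were positive with a median of 0.24, and in Abx_SCFA vs H2O 23 with a median of 0.090. In the interaction 25 were negative with a median of -0.49. In the same 4 contrasts the 11 cortical markers had medians of 1.82, 2.61, 1.49 and -2.95, with 11 of 11 on that side of 0, and their part in the values of this list was not tested. The medians over all genes in these contrasts lay between -0.0083 and 0.0069. Among them Cort, the neuropeptide cortistatin, gave 1.73 ± 0.55 in Abx vs H2O and 1.80 ± 0.52 in SCFA vs H2O (adjusted p = 0.563 and 0.247, edgeR). Vgf, a neuropeptide precursor induced by neurotrophins, gave 0.49 ± 0.11 in Abx_SCFA vs H2O (adjusted p = 0.815).

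The 20 tested genes that cleave and sort neurotrophin precursors had medians of 0.058, 0.066 and 0.050 in Abx, SCFA and Abx_SCFA vs H2O. Pcsk5, a proprotein convertase, gave 1.001 ± 0.30 in SCFA vs H2O (adjusted p = 0.247, edgeR), and Plg, the plasminogen gene, 1.01 ± 0.38 in Abx vs H2O (adjusted p = 0.563). The 47 tested Trk adaptors and kinases had medians of -0.0086, -0.014 and -0.029 in the same order, and Map2k1, the kinase MEK1, gave -0.39 ± 0.10 in SCFA vs H2O (adjusted p = 0.247). The 24 tested p75 co-receptors and adaptors had medians of -0.037, -0.029 and -0.059. Among them Rtn4r, the Nogo receptor that pairs with p75, gave 2.85 ± 0.90 in SCFA vs H2O (adjusted p = 0.247).

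The 24 tested genes of GDNF and other trophic factors had medians of -0.0040, 0.082 and 0.052. Igf1r, the receptor of insulin-like growth factor, gave 0.27 ± 0.095 in SCFA vs H2O (adjusted p = 0.25, edgeR) and -0.29 ± 0.094 in Abx_SCFA vs SCFA (adjusted p = 0.732). Artn, the GDNF-family ligand artemin, gave 0.98 ± 0.23 in Abx_SCFA vs SCFA (adjusted p = 0.732).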

How the data were processed

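Polyadenylated RNA of the nucleus accumbens was extracted with an RNeasy kit and made into cDNA with a SMARTer kit, per the labels' protocols. The authors deposited whole-number counts per gene symbol for 20 libraries. Per the submitters' processing notes, the build was Rnor_6.0 and the tools included STAR 2.4.0, FastQC 0.11.6 and limma. The sources used here name no counting tool, annotation or strand setting, so reads of overlapping or antisense genes cannot be assigned with certainty. Library totals are 17525358 to 25731636 counts, and floors and intervals of single counts cover counting error only.

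Counts were tested with edgeR 4.0.16 in R 4.3.3 (TMM scaling, filterByExpr with a minimum of 10 counts at the median library size and of 15 in total, robust glmQLFit, 1 model of 4 groups, 16 residual degrees of freedom), which tested 12846 genes. A call needs a Benjamini-Hochberg adjusted p below 0.05 over all genes. Standard errors were derived from the F statistic, and a prior count of 2 was added for log2 CPM. Group labels came from the treatment field, and replicate numbers only name libraries. The procedure was run on simulated counts, with changes planted in SCFA only and in genes of higher mean count than Ntf3. That run does not cover changes in genes as low as Ntf3, or groups that differ in tissue composition. Its outcome is not reported here.

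The members, the 5 pathway lists, the 12 marker lists and the tests were chosen with earlier results of these data known. The rule for named genes takes the 6 members, the 5 genes most like Bdnf and 3 most like each other member by Pearson's r among genes with a mean of at least 1 CPM, up to 2 genes of each pathway list with the smallest p per contrast, and Slc17a7, Drd1, Chat, Gfap and Mbp. To limit length, not all of these are printed, and a few genes are not reported here. Alternatives were other scalings, no filter, DESeq2 1.42.0, limma-voom (limma 3.58.1), fits of the compared groups alone, a cortical marker score or number series as a term, and libraries left out. RefSeq promoter windows are of GRCr8, not the authors' build, and were matched by symbol.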

Additional observations from a re-analysis of the deposited data

Results flagged for a closer look

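In H2O replicate 5, Bdnf stood at 6.05 CPM against 0.906 CPM in the next highest of the 5 H2O libraries, a gap of 0.865 of the group's whole range. Of 24 group ranges of members examined for such a gap, 1 passed Dixon's 95% critical value. Chance would pass about 1 in 20 groups if the values were normally distributed. The gap was examined in CPM only, so the flag holds for that scale. In log2 CPM this library stood at 2.62, the next at 0.00046 and the lowest at -2.33, where the gap is a smaller part of the range. Slc17a7 was also highest among the H2O libraries in this one, at 252 CPM.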

How the results depend on the processing

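Over 31 alternative settings, 1044 member fold changes were recomputed. Of these 1006 kept their sign, 38 turned (17 of them with 1 library left out) and 0 were called. With the cortical marker score as a covariate, the log2 values that turned were -1.27, -0.12, -0.62 and -0.15 for Ntf3, Ntrk2, Ngfr and Sort1 in Abx vs H2O. In SCFA vs H2O they were -0.020, -0.040, 0.11, -0.31 and -0.11 for Ntf3, Ntrk2, Ntrk3, Ngfr and Sort1, and in Abx_SCFA vs H2O -0.45, -0.099, 0.065 and -0.47 for Ntf3, Ntrk2, Ntrk3 and Ngfr. In the interaction they were 0.83, 0.064, 0.47 and 0.067 for Ntf3, Ntrk2, Ngfr and Sort1. For Bdnf they were 0.00034 in Abx_SCFA vs Abx and 0.32 in Abx_SCFA vs SCFA. Bdnf in Abx_SCFA vs SCFA also turned, to 0.38, without SCFA replicates 2 and 5. Ntrk2 in Abx_SCFA vs Abx turned, to -0.011, without H2O replicate 4 and Abx_SCFA replicate 5. The cause was not tested.

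With each library left out in turn, values spanned -0.024 to 0.064 for Ntrk2 and -0.016 to 0.11 for Sort1 in Abx vs H2O, and -0.088 to 0.018 for Sort1 in Abx_SCFA vs H2O. In Abx_SCFA vs Abx they spanned -0.999 to 0.42 for Bdnf, -0.023 to 0.065 for Ntrk2 and -0.11 to 0.22 for Ngfr, and in Abx_SCFA vs SCFA -0.066 to 0.055 for Ntrk3. Called genes, 0 by edgeR in each contrast (410 to 1770 at an unadjusted p below 0.05), ran from 0 to 2 in SCFA vs H2O and in Abx_SCFA vs SCFA, with 2 in each without H2O replicate 4 and 1 in each without Abx_SCFA replicate 5. Without both libraries there were 2 calls in SCFA vs H2O, 5 in Abx_SCFA vs SCFA and 1 in the interaction. DESeq2 called 1 gene in Abx vs H2O, 10 in SCFA vs H2O, 1 in Abx_SCFA vs H2O and 3 in Abx_SCFA vs SCFA.

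Ntf3 failed the filter in 4 of the 20 fits with a library left out and has no value there. With the number series as a term, Bdnf in Abx vs H2O was 2.77 ± 1.34. CPM on library totals moved member means by at most 0.721%. The 20 likeness values, at least 0.84, lay between 0.72 and 0.99 as Spearman's rho and between 0.80 and 0.98 with group means subtracted. No paired analysis was possible because replicate numbers follow accession order and rat numbers are not shared between groups. Low counts limit Ntf3, with at least 10 in 2 of 20 libraries, and Bdnf in H2O, with 2, 2 and 8 in 3 of 5.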
